A study of Mus musculus with 2 samples.

Results

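The interferon-inducible GTPases were followed in livers of male mice that lack Lpcat3 in hepatocytes. The group holds 9 genes of 18193 with a probe set of their own on the array, namely the guanylate-binding proteins Gbp2, Gbp3, Gbp6 and Gbp7 and the immunity-related GTPases Igtp, Irgm1, Irgm2, Iigp1 and Ifi47. The genes were chosen by their lower signals on these same arrays together with their family membership, so their differences below are a description and no test of them exists. All probe sets annotated to the 9 genes were taken, 13 in all, and 3 further probe sets that list several such GTPases at once (Tgtp1 with Tgtp2, Gvin1 with its paralog Gm4070, and Gbp8 with Gbp4) were kept apart.

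L-Lpcat3 KO mice carried homozygous floxed Lpcat3 alleles and the albumin-Cre transgene, and Flox/Flox mice carried the same floxed alleles without Cre. Both groups were male, 12 weeks old, fed chow and fasted for 6 hr, and total liver RNA of 5 mice was pooled per genotype and hybridized to 1 Affymetrix mouse genome array. Albumin-Cre deletes in hepatocytes, so Kupffer cells, endothelial cells and lymphocytes of L-Lpcat3 KO livers keep the gene. With 1 array for each genotype there is no replicate, no p-value and no SD, and every ratio is a single difference between 2 pools. Values are MAS5 signal intensities, a linear summary of the probes of each probe set after background correction.

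Guanylate-binding proteins (GBPs) and immunity-related GTPases (IRGs) are among the most strongly induced genes of interferon-gamma, and most are also induced by type I interferons. Their proteins assemble on membranes of vacuoles that hold parasites or bacteria and help to break these vacuoles open. The Irgm proteins (Irgm1, Irgm2 and Igtp, also called Irgm3) form a subgroup of the IRGs that sits on the membranes of the cell itself and keeps the other IRGs from acting there. In liver, hepatocytes, Kupffer cells and endothelial cells can all express these genes after interferon.

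The targeted gene Lpcat3 had a signal of 1305 in L-Lpcat3 KO and 3310 in Flox/Flox (log2 ratio -1.34). The loxP sites flank exon 3, and whether the single Lpcat3 probe set reads that exon is not known here. Log2 signals of the 2 pools correlated with r = 0.989 over 10820 genes above a floor of 76.4 on both arrays (a description across genes, which are not replicates), and the median log2 ratio of all 12059 measured genes was 0.00. This floor is the median of all signals. Signals under it were raised to it, and a probe set or gene was measured if at least 1 array reached it. For Gapdh, the 3' control probe set gave 0.851 times the 5' one in L-Lpcat3 KO and 0.866 times in Flox/Flox, and for Actb 2.32 times in L-Lpcat3 KO and 2.34 times in Flox/Flox.

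All 9 genes had lower signals in L-Lpcat3 KO than in Flox/Flox, in each of their 13 probe sets, and all 13 probe sets were above the floor in both pools. In RNA of whole liver, fewer cells of a type and less RNA per cell cannot be told apart. By the brightest probe set of each gene, 7 of the 9 were at least 1.5-fold lower and 3 at least 2-fold lower. Of all measured genes 3.14% were at least 1.5-fold lower and 0.514% at least 2-fold lower, while 4.01% were at least 1.5-fold higher. The median log2 ratio of the 9 genes was -0.72, with a range of -1.68 (Gbp2) to -0.31 (Iigp1). By probe set, 9 of 13 were at least 1.5-fold lower, against 3.71% of all measured probe sets. Ratios scatter more at dim signals, so the same count was taken over probe sets above the 75th percentile of signals (387) in both pools. There, 6 of 8 GTPase probe sets were at least 1.5-fold lower and 2 at least 2-fold lower, against 0.841% and 0.148% of all 10815 such probe sets. The members had been chosen on this contrast, so these shares describe how far they lay from the other genes and nothing more.

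**Figure D1:**
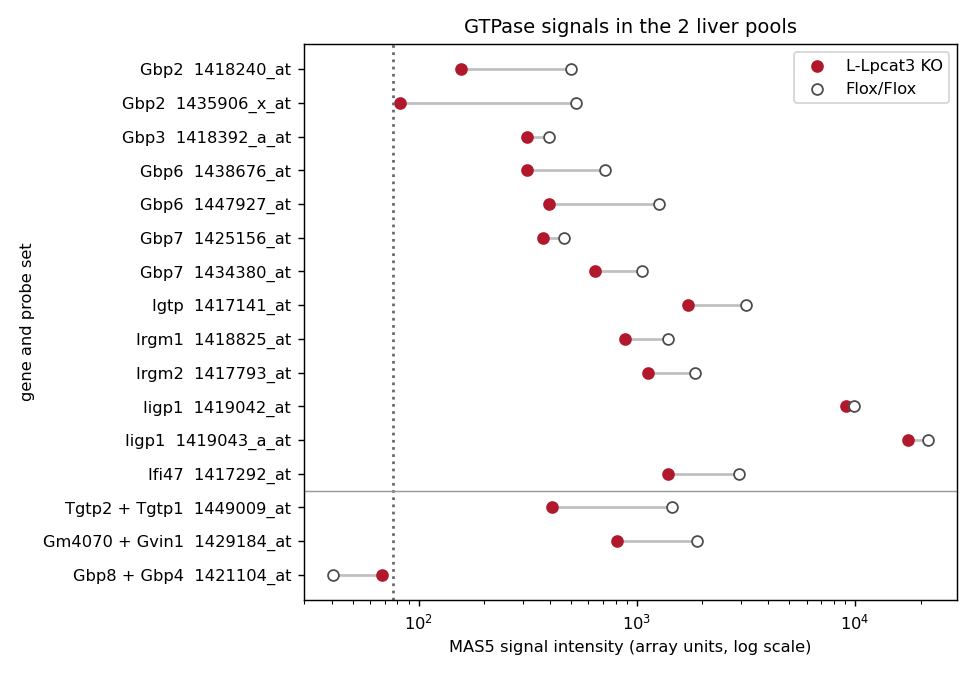
MAS5 signal intensity (x axis, log scale) of each GTPase probe set (y axis) in L-Lpcat3 KO (red) and Flox/Flox (open) liver pools, 1 array each, with the floor of 76.4 dotted; probe sets listing several genes are under the grey line. All 13 probe sets of the 9 genes lie lower in L-Lpcat3 KO, with the widest gap for Gbp2 (82.1 against 525) and a narrow one for Iigp1 (9106 against 9926).

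Among the GBPs, Gbp2 and Gbp6 stood lowest. Gbp2 encodes a GTPase that binds membranes through a prenyl anchor and takes part in the recognition of vacuolar pathogens. The brighter of its probe sets had a signal of 156 in L-Lpcat3 KO and 500.3 in Flox/Flox, 3.21-fold lower (log2 ratio -1.68). The other, which ends in _x_at, read 82.1 in L-Lpcat3 KO and 525 in Flox/Flox, 6.39-fold lower (-2.68). That was the lowest ratio of all 24183 measured probe sets, at a signal just above the floor in L-Lpcat3 KO. The 2 probe sets thus gave like signals for Flox/Flox and differed by 0.99 on the log2 scale in their ratios. That ending marks probes that may also take RNA of related genes. With the floor at 387, where the L-Lpcat3 KO signals of Gbp2 are not read, its 2 ratios were -0.37 and -0.44.

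Gbp6, a GBP of the second gene cluster, lay at 396 in L-Lpcat3 KO and 1265 in Flox/Flox by its brighter probe set, 3.20-fold lower (log2 ratio -1.68). Its dimmer probe set read 314 in L-Lpcat3 KO and 717 in Flox/Flox (2.28-fold lower, -1.19). Both probe sets of this gene were therefore past 2-fold, among the 63 lowest ratios of the 24183 measured probe sets. Gbp7 was 643 in L-Lpcat3 KO and 1059 in Flox/Flox by its brighter probe set, 1.65-fold lower (-0.72), while its other probe set gave 371 in L-Lpcat3 KO and 463 in Flox/Flox (-0.32). With the mean over its probe sets in place of the brighter one, Gbp7 was no longer 1.5-fold lower. Gbp3, with 1 probe set, differed least of the GBPs, with 315 in L-Lpcat3 KO and 394 in Flox/Flox (1.25-fold lower, -0.32). GBPs are close paralogs, and the share of each signal that comes from a paralog's RNA is not known.

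Promoters of GBPs were read from the RefSeq table of GRCm38.p6, from 250 bases before to 50 bases after each annotated start, and are shown because genes that differed together can be compared for interferon motifs. Searched on both strands were the core of the interferon-stimulated response element (ISRE), GAAA and another GAAA with any 2 bases in between, which interferon regulatory factors and the type I interferon complex ISGF3 bind, and the gamma-activated site (GAS) TTCNNNGAA, bound by STAT dimers. Capitals mark matches; TTTC is GAAA read from the other strand, and overlapping ISRE matches were counted singly. Windows of 50, 56 and 103 bases on the plus strand run 5′ to 3′ at chr3:142620584-142620633 (Gbp2), chr3:142559979-142560034 (Gbp3) and chr3:142530210-142530312 (Gbp7).
Gbp2: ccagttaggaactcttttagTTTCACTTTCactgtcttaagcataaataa
Gbp3: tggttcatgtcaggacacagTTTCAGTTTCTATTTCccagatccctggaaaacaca
Gbp7: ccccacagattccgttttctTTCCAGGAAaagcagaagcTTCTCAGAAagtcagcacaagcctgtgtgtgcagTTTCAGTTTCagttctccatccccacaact
The single ISRE core of Gbp2 began 59 bases before its start, the 2 overlapping ones of Gbp3 began 45 and 39 bases before it, and that of Gbp7 53 bases before it. For Gbp3, these lie in 1 of its 2 promoter entries. Gbp7 also held 2 GAS matches, which began 106 and 87 bases before the start, whereas neither Gbp2 nor Gbp3 held one in this window. Gbp2, with the largest difference of the GBPs, and Gbp3, with the smallest, both held the ISRE core. Gbp6 was not analysed for its promoter here.

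The Irgm subgroup was lower to a like degree in its 3 members. Igtp, which is needed in mice for resistance to Toxoplasma gondii, had a signal of 1725 in L-Lpcat3 KO and 3158 in Flox/Flox (1.83-fold lower, log2 ratio -0.87). Irgm2 had 1121 in L-Lpcat3 KO and 1844 in Flox/Flox (1.64-fold lower, -0.72). Irgm1, whose loss leaves mice open to mycobacteria and other intracellular pathogens, had 880.0 in L-Lpcat3 KO and 1392 in Flox/Flox (1.58-fold lower, -0.66). Each of these genes has 1 probe set, so no second reading of them exists on the arrays. All 3 lay between the 111th and the 272nd lowest ratio of the 12059 measured genes.

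The other IRGs, which have the standard nucleotide-binding motif that Irgm proteins lack, differed from each other more. Ifi47 (Irgd) was 1389 in L-Lpcat3 KO and 2934 in Flox/Flox, 2.11-fold lower (log2 ratio -1.08), the 45th lowest ratio among the 12059 genes. Iigp1 (Irga6), an IRG that coats the vacuoles of Toxoplasma gondii, was 17402 in L-Lpcat3 KO and 21534 in Flox/Flox by its brighter probe set (1.24-fold lower, -0.31). Its other probe set read 9106 in L-Lpcat3 KO and 9926 in Flox/Flox (-0.12). Iigp1 thus had the smallest difference of the 9 genes, and its signals lay near the top of the range of the arrays. Among the 904 probe sets that reached 9106 in both pools, the SD of log2 ratios was 0.13, 3 were at least 1.5-fold lower and 0 were that much higher. The brighter Iigp1 probe set had the 19th lowest ratio of these 904, and the other one the 158th. Whether signals level off at this height was not tested.

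**Figure D2:**
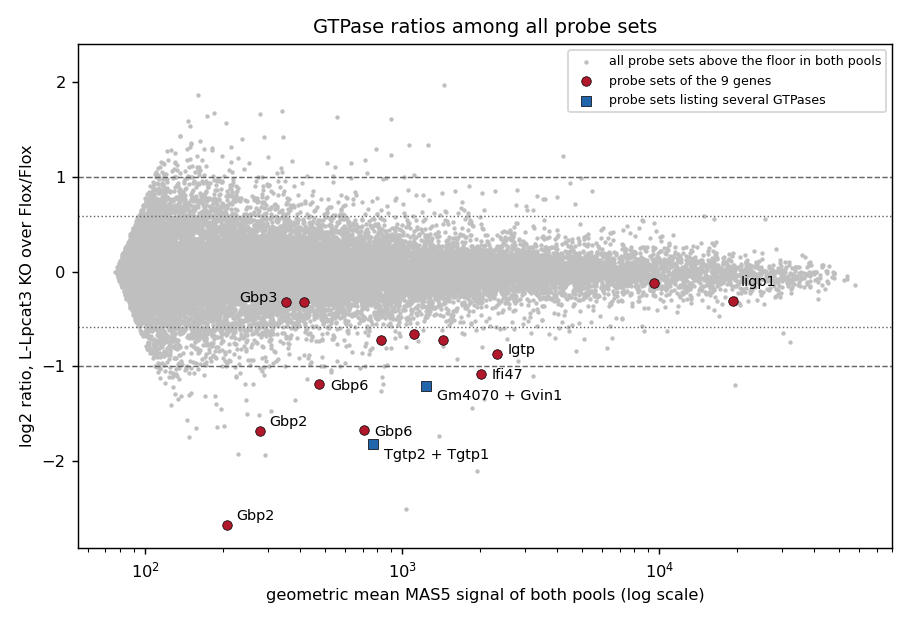
The y axis is log2 of the L-Lpcat3 KO signal divided by that of Flox/Flox, and the x axis (log scale) the mean of both MAS5 signals (geometric), for every probe set that passed the floor on both arrays (grey), the 13 probe sets of the 9 GTPase genes (red) and 2 probe sets listing several GTPases (blue); dashed lines mark 2-fold and dotted lines 1.5-fold. Gbp2 (-2.68 and -1.68), Gbp6, Ifi47 and the Tgtp probe set (-1.82) lie below the grey cloud at their signals, while Gbp3 (-0.32) lies within it.

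Probe sets that list several GTPases were in part as low as the 9 genes. Tgtp1 and Tgtp2 encode the near-identical IRG Irgb6, an effector IRG, and their shared probe set read 411 in L-Lpcat3 KO and 1451 in Flox/Flox, 3.53-fold lower (log2 ratio -1.82). It had the 7th lowest ratio of all 24183 measured probe sets. Gvin1, a very large interferon-inducible GTPase, shares a probe set with Gm4070, with 816 in L-Lpcat3 KO and 1879 in Flox/Flox (2.30-fold lower, -1.20). How the signal divides between the listed genes cannot be told from 1 probe set. The probe set that lists Gbp8 with Gbp4 was below the floor in both pools (67.9 in L-Lpcat3 KO and 40.8 in Flox/Flox), so it gives no ratio.

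Promoters of the Irgm genes and of the Tgtp pair are shown for the spacing of their motifs, in the same notation. The windows lie on the plus strand at chr11:58199491-58199551 (Igtp) and chr11:58214882-58214942 (Irgm2), and on the minus strand at chr11:48871415-48871470 (Irgm1), chr11:48992294-48992354 (Tgtp1) and chr11:49064253-49064313 (Tgtp2).
Igtp: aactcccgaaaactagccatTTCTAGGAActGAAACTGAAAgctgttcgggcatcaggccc
Irgm2: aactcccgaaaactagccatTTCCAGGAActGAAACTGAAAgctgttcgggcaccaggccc
Tgtp1: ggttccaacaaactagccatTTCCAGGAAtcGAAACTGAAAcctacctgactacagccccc
Tgtp2: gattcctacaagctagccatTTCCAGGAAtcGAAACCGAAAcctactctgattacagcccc
Irgm1: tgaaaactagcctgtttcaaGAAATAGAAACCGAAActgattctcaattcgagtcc
In Igtp, Irgm2, Tgtp1 and Tgtp2 a GAS match was followed, 2 bases later, by an ISRE core. Irgm1 held 2 overlapping ISRE cores and no GAS match, and the Ifi47 window held neither motif. The Iigp1 promoter was not analysed here.

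Of the 7 member genes with a promoter entry, 6 held an ISRE core and 3 a GAS match. Of the 9772 measured genes with an entry, 3.61% held an ISRE core and 8.08% a GAS match, and over all 32851 promoters the shares were 3.44% and 8.30%. A match is only a run of letters and shows no binding in these livers. Genes of 1 family can share promoter sequence by descent, so the 6 promoters are not separate cases.

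**Figure D3:**
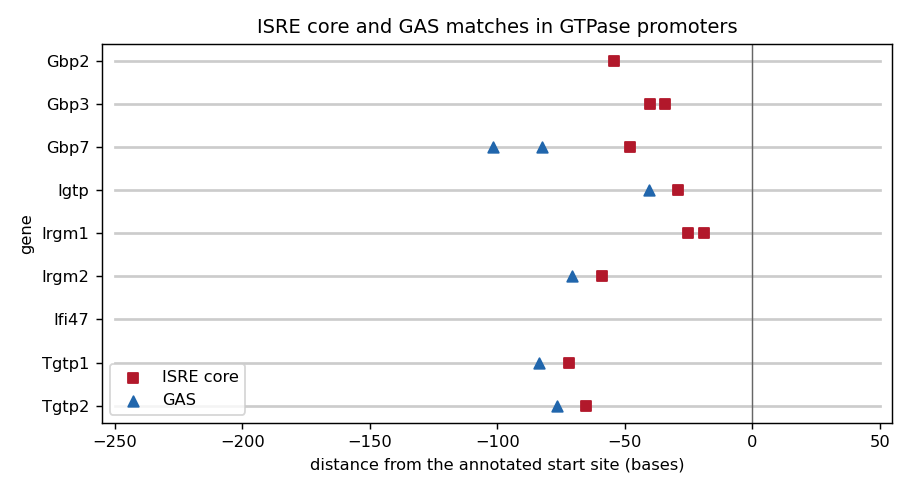
Positions of ISRE core (red squares) and GAS (blue triangles) matches in promoters of 7 GTPase genes and the Tgtp pair, as distance in bases from the annotated start site (x axis; grey lines span the window searched). In Igtp, Irgm2, Tgtp1 and Tgtp2 a GAS match stands 2 bases before an ISRE core, and Ifi47 has no match.

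Other members of these families, and GTPases of related families, were mostly dim or differed little. Of 23 related GTPase genes listed, 12 had a probe set of their own and 9 were measured, with a median log2 ratio of -0.09. The list also takes in dynamins, atlastins and Mx genes, which are neither GBPs nor IRGs. Gbp8 was 66.0 in L-Lpcat3 KO, under the floor, and 126 in Flox/Flox, at least 1.64-fold lower for this floor. Gm12185, which RefSeq lists as Irgb2b1, was higher instead, with 204 in L-Lpcat3 KO against a signal under the floor in Flox/Flox (31.9), at least 2.67-fold higher. The brightest were Gm4951 (6412 in L-Lpcat3 KO and 7231 in Flox/Flox, log2 ratio -0.17) and the atlastin Atl3 (2390 in L-Lpcat3 KO and 2436 in Flox/Flox, -0.03), a GTPase that fuses ER membranes and belongs to the same superfamily as the GBPs. Among the GBP and IRG relatives measured, Gm12185 alone had a ratio above 0, from a probe set under the floor in Flox/Flox. Gbp8 and Gbp2b (52.3 in L-Lpcat3 KO and 79.0 in Flox/Flox) were under the floor in L-Lpcat3 KO alone. Their ratios could thus only fall below 0, as that of Gm12185 could only rise above it. Irgq (-0.09) and Gm4951 were above the floor in both pools. Listed relatives without a probe set of their own were not read.

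Genes upstream of the GTPases differed less. Ifng, which encodes interferon-gamma, was under the floor in both pools (1.24 in L-Lpcat3 KO and 1.80 in Flox/Flox), as were 5 others of the 9 genes of interferons and their inducing cytokines. The inducers Il18 (log2 ratio 0.07) and Il15 (0.18) were the 2 brightest measured. Of 19 genes of receptors and signal transduction, 9 had ratios below 0 and 10 above, and the median was 0.02. For 18 of them both pools were above the floor, and none of these was 1.5-fold apart. That is near the share over all genes above the floor in both pools, of which 94.4% were within 1.5-fold. Ciita, which activates MHC class II genes, had 93.8 in L-Lpcat3 KO and a signal under the floor in Flox/Flox (24.4), at least 1.23-fold higher. The brightest of the 19 were Stat3, 2933 in L-Lpcat3 KO and 4190 in Flox/Flox (-0.51), and the type I receptor chain Ifnar2 (-0.08). Irf1, the transcription factor that acts on many of these promoters, had 827 in L-Lpcat3 KO and 938 in Flox/Flox (-0.18) and was named after its value was seen.

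Inhibitors of interferon signalling had a median of -0.05 over 9 measured genes. Usp18, a brake on the type I receptor that is itself induced by interferon, was 473 in L-Lpcat3 KO and 808 in Flox/Flox (1.71-fold lower, log2 ratio -0.77). Cish, an inhibitor induced through STAT5, was 1044 in L-Lpcat3 KO and 607 in Flox/Flox (1.72-fold higher, 0.78). The brightest, Ptpn11 and Ptpn2, had log2 ratios of 0.09 and 0.04, and Socs1, which blocks the kinases of the interferon-gamma receptor, was under the floor in both pools.

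Other targets of interferon-gamma were lower in most cases, with a median nearer to 0 than that of the GTPases. Their median log2 ratio was -0.21 over 20 measured genes, of which 17 lay below 0. The 1.5-fold mark was passed downward by 5 of them and upward by 0, against 3.14% and 4.01% of all measured genes, of which 5942 of 12059 lay below 0. Cxcl9, a chemokine for activated T cells, was 436 in L-Lpcat3 KO and 2471 in Flox/Flox (log2 ratio -2.50), and its relative Cxcl10 was 148 in L-Lpcat3 KO and 284 in Flox/Flox (-0.95). The others past 1.5-fold were Mthfd2 (-1.03), an enzyme of mitochondrial folate metabolism, Zbp1 (-0.65), a sensor of nucleic acids, and the uridine phosphorylase Upp1 (-0.62). The brightest, B2m (-0.18) and the complement inhibitor Serping1 (-0.10), differed little. By the brightest probe set of each gene, Cxcl9 thus lay below all 9 GTPase genes, and most of the list lay above their median. The other Cxcl9 probe set read 118 in L-Lpcat3 KO and 446 in Flox/Flox (-1.92). The dimmer Gbp2 probe set, at -2.68, lay below both Cxcl9 readings.

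Targets of type I interferon were lower as well. Their median log2 ratio was -0.35 over 25 measured genes, of which 23 lay below 0. The 1.5-fold mark was passed downward by 5 and upward by 1, against the same 3.14% and 4.01% of all measured genes. The 5 were Trim30a (-0.79), Ifit1 (-0.72), Ifit2 (at least 1.56-fold lower, under the floor in L-Lpcat3 KO), the antiviral enzyme Rsad2 (-0.63) and Ifitm1 (-0.60). Oas2, which makes the activator of RNase L, was the exception, with 237 in L-Lpcat3 KO and 113 in Flox/Flox (1.07). The bright Ifitm3 and Ifitm2, which hold viruses in endosomes, had log2 ratios of -0.23 and -0.07. These lists share inducers with the GTPases and come from the same 2 arrays, and they are no independent support. Genes of other tissues, such as rod and sperm genes, also had a median below 0. It was -0.42 over the 7 of 29 that were measured, with 6 below 0. The 29 genes were mostly dim, with a median signal of 12.8 over all their probe sets, measured or not, against 269 for the type I targets. Opn1mw (12.7 in L-Lpcat3 KO and 79.0 in Flox/Flox) and Gfap (57.9 and 114) passed the floor in Flox/Flox alone. The ratios of these 2 could thus only fall below 0. The other measured genes of the list were above the floor in both pools. Gnat1 had 368 in L-Lpcat3 KO and 501 in Flox/Flox (log2 ratio -0.45). Pde6g (-0.44) and Crx (-0.42) were near the floor, and Prm1 (-0.09) and Sycp3 (0.09) differed little. Lower ratios of this size thus also occurred outside the interferon lists, and their cause was not tested.

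Genes whose products place GTPases on vacuoles were close in both pools, as were most genes above the floor. Of 16 measured, among them the ATG proteins and the GABARAP family that direct GBPs and IRGs to vacuoles, none was 1.5-fold apart. Their median was 0.00. Of all genes above the floor in both pools, 94.4% were within 1.5-fold, so this count is near the common share. The brightest of the 16 were Gdi2 (12602 in L-Lpcat3 KO and 13708 in Flox/Flox, log2 ratio -0.12) and Gabarap (0.00). Enzymes that attach and trim the prenyl anchors of proteins such as Gbp2 had a median of 0.16 over 8 genes. None of the 7 above the floor in both pools was 1.5-fold apart, again near that share. Fntb was at least 1.26-fold higher, with 96.2 in L-Lpcat3 KO and 64.9, under the floor, in Flox/Flox. Of the 8 genes, Fdps, which makes the farnesyl donor, was 11299 in L-Lpcat3 KO and 9050 in Flox/Flox (0.32), and the protease Zmpste24 had a log2 ratio of -0.10.

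**Figure D4:**
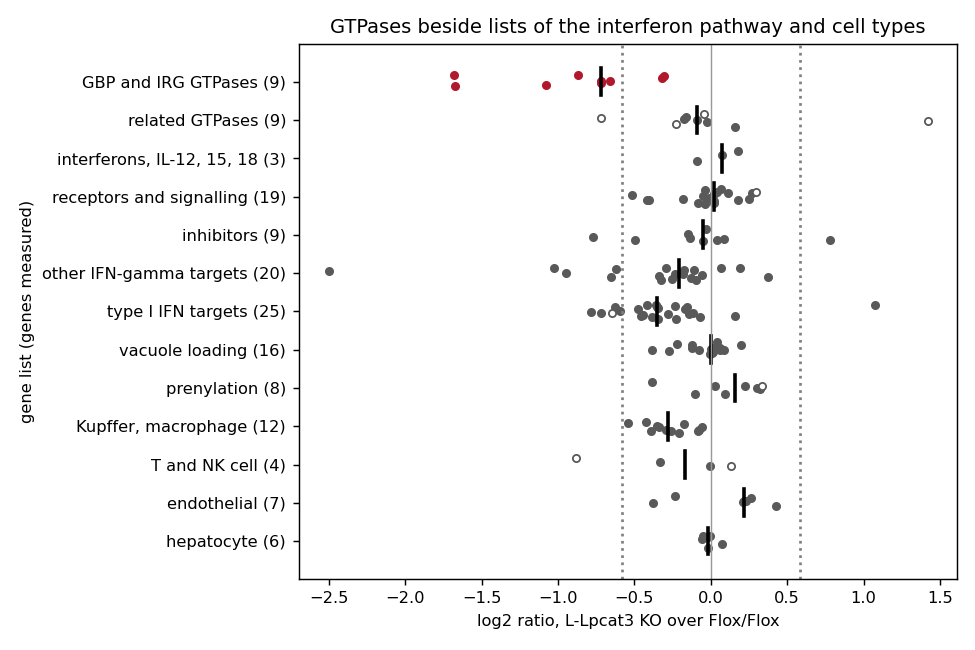
The x axis is log2 of the L-Lpcat3 KO signal divided by that of Flox/Flox, for the measured genes of each list (y axis, number of genes in parentheses), 1 point per gene; open points had 1 pool under the floor, black bars are medians and dotted lines mark 1.5-fold. The 9 GTPases have a median of -0.72, other interferon-gamma targets of -0.21, type I interferon targets of -0.35, and signalling genes of 0.02.

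Markers of liver cell types were read beside the GTPases, since several cell types can express these genes. All 12 Kupffer cell and macrophage markers had ratios below 0, against 5942 of 12059 measured genes. None was at least 1.5-fold lower, against 3.14% of measured genes, and the median log2 ratio of the 12 markers was -0.28. Their summed signal was 11596 in L-Lpcat3 KO and 13406 in Flox/Flox, 86.5% of it, whereas the summed signal of the 9 GTPase genes was 24027 in L-Lpcat3 KO and 34080 in Flox/Flox, 70.5% of it. Iigp1 carried most of that sum, and the other 8 genes summed to 6625 in L-Lpcat3 KO and 12546 in Flox/Flox, 52.8% of it. The brightest of these markers, Csf1r (-0.08) and Cd5l (-0.21), differed less than the median.

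T and NK cell markers, which mark the main producers of interferon-gamma, were mostly under the floor. Of 11, 7 were under it in both pools, among them Cd3e, Cd3d, Cd3g, Cd4 and Ncr1. The 4 measured had a median of -0.17 and a summed signal of 443 in L-Lpcat3 KO and 527 in Flox/Flox. Il2rb was under the floor in L-Lpcat3 KO and 141 in Flox/Flox (at least 1.84-fold lower), and Cd8a (-0.33) and Prf1 (0.00) were the brightest. Endothelial markers had a median of 0.22 over 7 genes, 5 above 0 (the brightest, Clec4g and Fcgr2b, at 0.23 and 0.22) and 2 below it (Pecam1 at -0.24 and Cdh5 at -0.38), and a summed signal of 8121 in L-Lpcat3 KO and 7006 in Flox/Flox. Hepatocyte markers had a median of -0.02 over 6 genes, all bright on both arrays, with a summed signal of 274697 in L-Lpcat3 KO and 277677 in Flox/Flox. The part of cell numbers in the lower GTPase signals was not tested.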

How the data were processed

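The authors deposited 1 table with a signal intensity for each of 45101 probe sets on 2 arrays. The submitters' processing notes name MAS5 for them, and the methods GeneSpring GX; versions and the genome build are not given in the sources used here. Without the lowest and highest 2% of signals, the mean was 500.0 on both arrays, so they had been scaled before deposit. Genes were named through the platform annotation, updated by gene ID to RefSeq (GRCm38.p6). Of the probe sets, 64 were controls, 34945 had 1 gene, 932 several and 9160 none.

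Log2 was taken with no further scaling after raising signals to the floor. Each gene took the values of the probe set with its highest geometric mean, and ratios are L-Lpcat3 KO over Flox/Flox. Where 1 array lay under the floor, the ratio is a bound for that floor ("at least"). With 1 array per genotype no test was run; sizes of 1.5-fold and 2-fold were counted, with the same counts over all features. From each gene list, up to 6 members past 1.5-fold and the 2 brightest are named. The members and lists were chosen with earlier results of these data known, and Gm4951, Gm12250, Gm5431 and Gm12185 were added to the related GTPases, and Irgc was renamed Irgc1 there, after the files were seen. Other scalings, floors and gene summaries were run as alternatives. The scripts were tested on simulated data. Python 3.11.15, numpy 2.4.6, pandas 2.3.3, statsmodels 0.14.6 and matplotlib 3.10.9 were used.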

Additional observations from a re-analysis of the deposited data

How the results depend on the processing

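The lower signals of the 9 GTPases kept their direction under all 9 alternatives run. Median centring, quantile normalization and loess gave medians of -0.73, -0.71 and -0.71, against -0.72 as deposited. The lowest median was -0.80 (without probe sets ending in _s_at, _x_at or _a_at, which leaves out Gbp3) and the highest -0.68 (the floor added as a pseudocount). Of the 9, 6 were at least 1.5-fold lower with the floor at the 75th percentile (387, where 2 were at least 2-fold lower) and with the mean over probe sets, and 7 otherwise. The background moved more: genes at least 1.5-fold lower were 3.14% of those measured as reported, 8.57% with the floor at the 25th percentile, 0.812% at the 75th and 13.0% with no floor or filter.

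Of 105 single readings (15 probe sets, 7 alternatives), 9 moved by 0.1 or more on the log2 scale and none changed sign. With the floor at 387 these were both Gbp2 probe sets (-0.37 and -0.44), Gbp3 (-0.03) and the dimmer one of Gbp6 (-0.89). With the pseudocount they were both of Gbp2 (-1.31 and -1.92), both of Gbp6 (-1.51 and -1.02) and that of Tgtp1 and Tgtp2 (-1.65). Signals near the floor limit the size of these ratios. No paired analysis was possible because each genotype has 1 array, and no array could be left out.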

Other observations

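The GTPase genes lie in clusters on chromosomes 3, 5, 11 and 18, and the order of genes in RefSeq was used to read what lies beside them. The 3 nearest measured genes on each side of every member, leaving out the GTPases listed here, came to 30 genes. The median of their log2 ratios (L-Lpcat3 KO divided by Flox/Flox) was 0.03, with 15 below 0 and 15 above. At least 1.5-fold lower were 2 of the 30 and that much higher 2, against 3.14% and 4.01% of all measured genes. The lowest was BC023105, a pseudogene that follows Iigp1, with a signal of 174 in L-Lpcat3 KO and 397 in Flox/Flox (log2 ratio -1.19). This neighbour thus differed more than Iigp1 itself (-0.31), and it was singled out after its value was seen. Whether BC023105 is itself a relative of the GTPase genes was not examined. Beside the Gbp cluster on chromosome 3 lay Kyat3 (0.19), Gtf2b (-0.14) and Pkn2 (0.16) on 1 side, and on the other Pdlim5 (0.46), Rap1gds1 (-0.08) and Unc5c, which was under the floor in Flox/Flox and had a log2 ratio of at least 0.91.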
